A study of Mus musculus with 7 samples.

Results

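The genes described here are 37 genes of skeletal muscle calcium handling, energy supply and excitability, read by symbol from a count table of 55423 features. They were taken by name, with earlier results of these data known, and all 37 had enough reads to be tested. The tumours were cutaneous squamous cell carcinomas of mice in which tamoxifen on the skin switched on an inducible Cre recombinase in cells expressing involucrin (IVL), a gene of differentiating keratinocytes. The sample labels give an age of 7 to 10 weeks, and the study's methods give a somewhat older range for induction. In Ivl:BRAFV600E tumours the Cre activated the oncogene BRAFV600E alone, and in Ivl:BRAFV600E-SOX2LSL tumours it activated the same oncogene together with a transgene for the transcription factor SOX2. Both groups therefore carried Cre, BRAFV600E and tamoxifen exposure, and they differed in the SOX2 allele, whose transcript also encodes EGFP. Whole tumours were kept in RNAlater and sequenced as bulk RNA, from 200 ng per library after depletion of ribosomal RNA, so that any tissue taken with a tumour is in its library. The body site of each tumour was not given in the sources used here.

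Contraction of a skeletal muscle fibre starts at the neuromuscular synapse, where acetylcholine receptors depolarise the fibre and sodium channels carry the signal along its membrane. A voltage sensor in that membrane then opens the ryanodine receptor of the sarcoplasmic reticulum, calcium flows out, and a calcium pump returns it to the store. Creatine kinase, glycogen breakdown, glycolysis and mitochondria supply the ATP. Mouse skin rests on a thin sheet of striated muscle, the panniculus carnosus, and keratinocytes use other members of the same gene families for their own calcium and energy metabolism.

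Tumours A, B and C were Ivl:BRAFV600E and tumours D, E and F were Ivl:BRAFV600E-SOX2LSL, each from a different mouse. A, B and F were from females and C, D and E from males. Between 23565432 and 31152826 reads were counted per tumour, and values are given as CPM, each gene's reads relative to the library size after TMM scaling (counts per 1000000). A count of 3, taken as the limit of detection in 1 library, was worth between 0.0839 and 0.143 CPM. Limits and intervals of this kind cover counting error only. *Sox2* stood at 0.716, 0.508 and 0.238 CPM in A, B and C and at 182, 155 and 158 CPM in D, E and F, and the *EGFP* sequence had 0 counts in A, B and C and between 3132 and 4957 in D, E and F. For the SOX2 allele the libraries thus matched their labels, and BRAFV600E and Cre were not checked in the reads. P-values measure the spread between these 6 tumours. The study's records put the collection of every Ivl:BRAFV600E-SOX2LSL tumour before that of every Ivl:BRAFV600E tumour, so genotype and time cannot be told apart.

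Of the 37 genes, 27 matched by symbol a RefSeq window on GRCm38.p6 of 300 bases, from 250 bases before the transcription start to 50 after it. *Cacng1*, *Stac3*, *Jph1*, *Jsrp1*, *Trdn*, *Sln*, *Ampd1*, *Cox6a2*, *Slc2a4* and *Fbxo32* had none. The E-box CAGCTG, the form of the CANNTG motif that myogenic factors such as MYOD1 and myogenin favour, lay in 16 of the 27 windows (59.3%) and in 16.3% of the 32851 windows in the table. With every annotated start of these genes counted, it lay in 17 of 35 windows (48.6%). The general form CANNTG, which includes CAGCTG, was in 85.2% of the members' windows and in 72.3% of all windows. A MEF2 motif was found in 4 of 27 (14.8%), in *Casq2*, *Pvalb*, *Pgam2* and *Clcn1*, against 3.19% of all windows. The CArG box, which serum response factor binds in muscle genes, was in 0 of 27 and in 1.63% of all windows, and TATAAA was in 14.8% and 8.32%. CATTGT, the core letters bound by SOX proteins, was in 3 of 27 (11.1%), in *Ryr1*, *Mb* and *Chrna1*, against 12.6% of all windows. Both strands were searched, except for TATAAA, which was read on the strand of the gene only. The motifs were chosen with the expression values known, and a match describes letters and not a bound site.

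The sequences below are the 200 bases before the RefSeq start, from 5′ to 3′ on the strand of the gene. They were chosen to set 6 promoters with the E-box beside the MEF2 motif of *Pvalb* and beside *Ryr1* and *Pfkm*, which lack CAGCTG. The capitals mark CAGCTG in the first 6 sequences (in *Trim63* also TATAAA), the MEF2 match in *Pvalb* and CATTGT in *Ryr1*, and *Pfkm* has none.
Atp2a1, chr7:126463074-126463273, minus strand: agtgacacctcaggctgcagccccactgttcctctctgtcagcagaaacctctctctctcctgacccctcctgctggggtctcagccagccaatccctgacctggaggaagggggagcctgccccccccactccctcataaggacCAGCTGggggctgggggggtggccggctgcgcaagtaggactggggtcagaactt
Cacna1s, chr1:136052611-136052810, plus strand: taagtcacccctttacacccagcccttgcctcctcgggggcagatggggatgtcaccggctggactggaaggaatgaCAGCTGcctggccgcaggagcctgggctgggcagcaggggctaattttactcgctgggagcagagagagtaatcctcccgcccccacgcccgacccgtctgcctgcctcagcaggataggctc
Pygm, chr19:6384208-6384407, plus strand: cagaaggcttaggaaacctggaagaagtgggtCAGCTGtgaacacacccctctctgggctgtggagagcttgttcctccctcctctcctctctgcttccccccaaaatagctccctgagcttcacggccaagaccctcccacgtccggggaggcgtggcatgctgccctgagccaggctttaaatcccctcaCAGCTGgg
Cox8b, chr7:140900447-140900646, minus strand: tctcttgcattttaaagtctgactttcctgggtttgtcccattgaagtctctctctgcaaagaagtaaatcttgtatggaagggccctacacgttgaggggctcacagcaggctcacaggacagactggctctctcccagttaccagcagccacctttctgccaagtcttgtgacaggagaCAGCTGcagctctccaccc
Trim63, chr4:134314920-134315119, plus strand: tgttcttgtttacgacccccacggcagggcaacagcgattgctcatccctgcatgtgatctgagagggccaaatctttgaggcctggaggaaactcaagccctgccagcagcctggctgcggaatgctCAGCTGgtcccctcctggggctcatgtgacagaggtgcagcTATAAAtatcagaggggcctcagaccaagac
Chrna1, chr2:73580339-73580538, minus strand: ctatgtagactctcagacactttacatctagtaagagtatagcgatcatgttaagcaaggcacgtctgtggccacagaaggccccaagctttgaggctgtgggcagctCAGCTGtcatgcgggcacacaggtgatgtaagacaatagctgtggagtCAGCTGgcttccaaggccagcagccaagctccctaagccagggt
Pvalb, chr15:78206401-78206600, minus strand: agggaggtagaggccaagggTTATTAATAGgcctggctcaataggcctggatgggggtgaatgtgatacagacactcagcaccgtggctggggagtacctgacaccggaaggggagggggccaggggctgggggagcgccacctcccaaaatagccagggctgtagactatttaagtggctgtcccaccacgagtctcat
Ryr1, chr7:29125152-29125351, minus strand: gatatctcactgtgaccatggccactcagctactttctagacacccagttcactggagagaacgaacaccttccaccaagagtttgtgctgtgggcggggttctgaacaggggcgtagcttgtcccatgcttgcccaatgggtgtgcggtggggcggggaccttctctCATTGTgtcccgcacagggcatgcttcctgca
Pfkm, chr15:98092389-98092588, plus strand: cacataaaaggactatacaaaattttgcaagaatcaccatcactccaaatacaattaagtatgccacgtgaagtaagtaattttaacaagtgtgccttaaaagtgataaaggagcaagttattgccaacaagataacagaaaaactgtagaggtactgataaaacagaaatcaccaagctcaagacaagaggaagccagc

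The E-box of *Atp2a1* began 55 bases before the start and that of *Cacna1s* 123 bases before it. *Chrna1*, a receptor subunit of the synapse, had a pair of them, beginning 92 and 44 bases before the start, and *Pygm* had one at 168 and one at 8 bases. Of the 16 members with a window that were called higher in the comparison that follows, 11 had CAGCTG, and of the 11 that were not called, 5 had it.

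The comparison of the genotypes asked how RNA of these genes differed in tumours of IVL+ cells with and without SOX2 overexpression. RNA of the voltage sensor, the ryanodine receptor, the fast calcium pump, muscle creatine kinase, muscle glycogen phosphorylase and myoglobin was higher in Ivl:BRAFV600E-SOX2LSL tumours. By edgeR's quasi-likelihood test with Benjamini-Hochberg adjustment over all genes, 21 of the 37 genes rose, none fell and 16 were not called. The same test called 2.39% of all 24433 genes higher and 1.51% lower, 3.9% in all. The lowest of D, E and F exceeded the highest of A, B and C for 32 of the 37, as it did for 18.2% of all genes (16% did not overlap in the other direction). The median log2 fold change of the members was 3.79 and that of all genes tested was 0.04. All 37 fold changes were positive, also under each other scaling, model and left-out tumour that was run, and scaling by library totals alone moved the median of all genes to 0.39. In bulk samples fewer cells of a type and less RNA per cell cannot be told apart.

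The number of members called depended on which tumours were included. Without tumour A no member was called, although 29 of the 37 had an unadjusted p below 0.05, and that fit called 0.0501% of all genes higher. Without B, C or E the counts were 2, 4 and 8, beside 0.136%, 0.515% and 0.574% of all genes. Without D or without F the count was 21, beside 3.59% and 1.24%. With sex as a covariate 13 members were called, beside 0.659% of all genes, and limma called 7, beside 1.51%. In each of these fits with fewer than 21 members called, the share of all genes called higher was also below 2.39%.

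**Figure D1:**
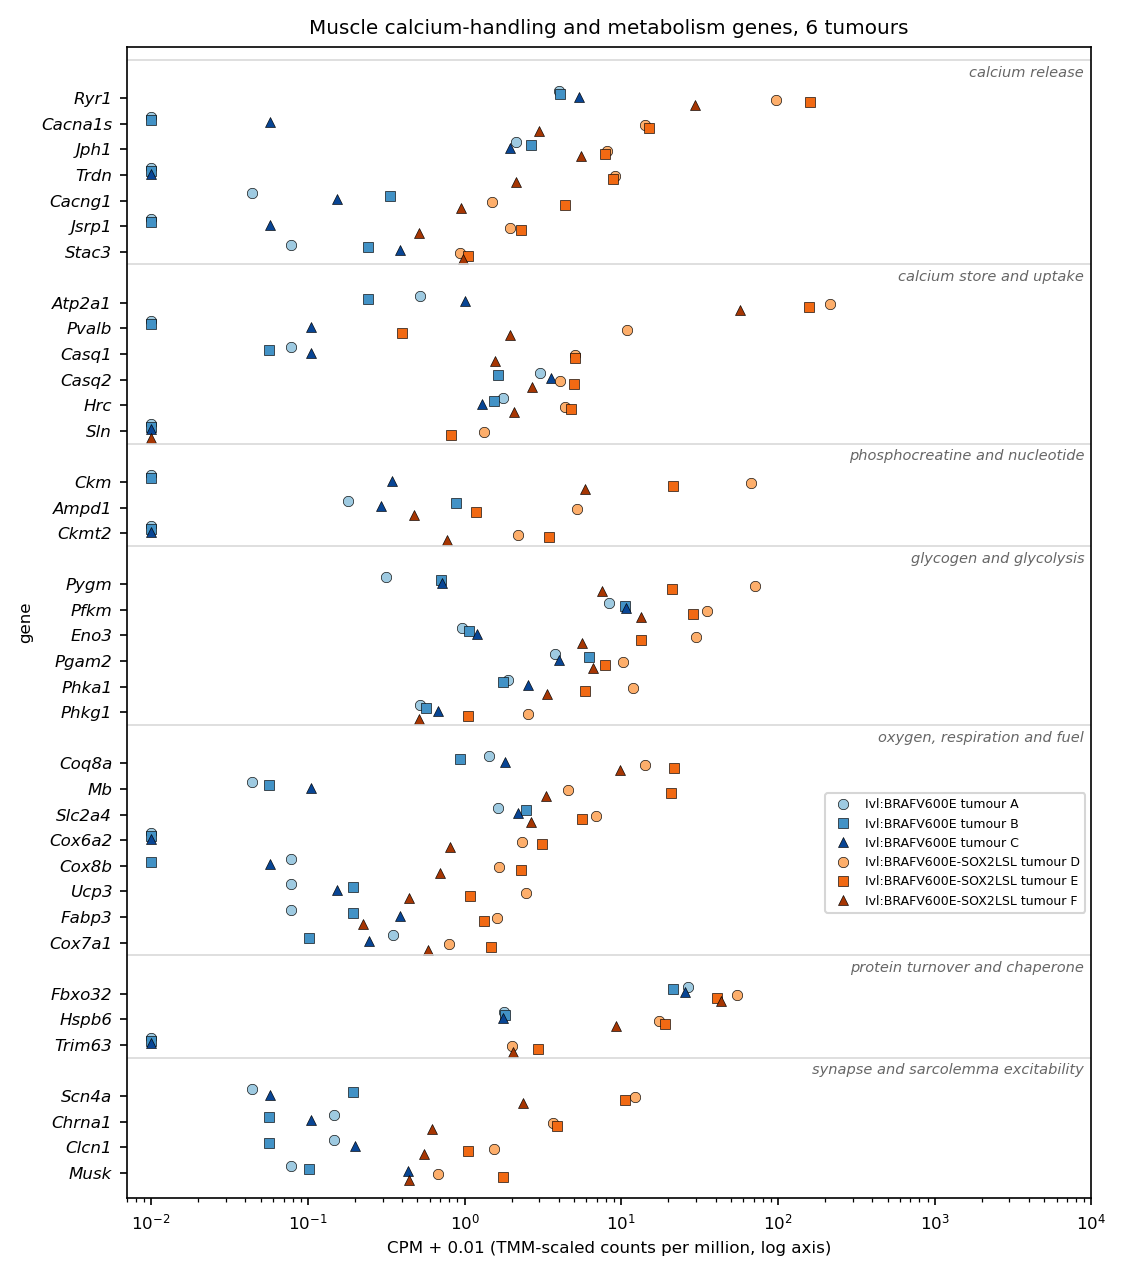
CPM plus 0.01 on a log axis for each of the 37 genes, with 1 point per tumour, blue for Ivl:BRAFV600E and orange for Ivl:BRAFV600E-SOX2LSL, grouped by role. Points at the left edge are tumours with 0 counts. The orange points lie to the right of the blue ones for 32 genes, and tumour F is the lowest orange point for most of them.

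In the calcium release machinery 5 of 7 genes were called. *Ryr1* encodes the calcium release channel (chr7:29003344-29125179, minus strand). It measured 4.02, 4.06 and 5.37 CPM in A, B and C and 97.4, 159 and 29.6 CPM in D, E and F. The lowest SOX2LSL tumour was thus well above the highest Ivl:BRAFV600E tumour, and the log2 fold change was 4.41 ± 0.60 (SE, edgeR adjusted p = 0.0205) and 3.82 without E. *Cacna1s*, the pore and voltage sensor of the muscle calcium channel (chr1:136052750-136119822), had 0, 0 and 1 counts in the Ivl:BRAFV600E tumours and 504, 461 and 83 in the SOX2LSL tumours. The ratio of the summed counts per library was 800, with a 95% counting interval of 143 to 31641 that leaves out the spread between tumours, and the edgeR adjusted p was 0.0132. Its transcript was close to absent in the first group and readily counted in the second.

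*Trdn*, triadin, which ties the release channel to the calcium store, had 0 counts in A, B and C and 326, 273 and 59 in D, E and F, at least 167-fold higher when 3 counts are allowed over the first group (edgeR adjusted p = 0.0266). *Jsrp1*, a protein of the junction between membrane and store, had 0, 0 and 1 counts against 69, 71 and 14, a ratio of 118 (20.8 to 4675). For *Cacna1s* and *Jsrp1* the single count was in C, so that without C the group was at 0, and without A the fitted log2 fold changes moved from 9.17 to 8.57 and from 6.42 to 5.82. *Jph1*, junctophilin, which holds the membranes together, already stood at 2.11, 2.63 and 1.95 CPM in A, B and C. It rose to 8.06, 7.87 and 5.56 CPM, the smallest change of the group, with a log2 fold change of 1.68 ± 0.25. *Cacng1*, the gamma subunit of the calcium channel, measured 0.0341, 0.323 and 0.143 CPM against 1.48, 4.37 and 0.939 CPM and was not called (adjusted p = 0.0584). *Stac3*, an adaptor of the channel, measured 0.0682, 0.231 and 0.38 CPM against 0.923, 1.04 and 0.975 CPM and was not called either (adjusted p = 0.0815). Neither gene's groups overlapped.

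Among the genes of the calcium store, *Atp2a1* stood out. It encodes SERCA1, the calcium pump of fast fibres (chr7:126445858-126463108, minus strand), and has the E-box printed above. Its level was 0.512, 0.231 and 0.998 CPM in A, B and C and 214, 157 and 57.0 CPM in D, E and F. The log2 fold change was 7.94 ± 0.71, with the smallest adjusted p of the 37 genes (edgeR, 0.00708), and the call held in 5 of the 6 fits that left out 1 tumour. Per kilobase of exon it was the most abundant member in SOX2LSL tumours, at a mean of 41.0 CPM per kb, followed by *Ckm* at 10.8 and *Pygm* at 10.3. *Casq1*, calsequestrin of skeletal muscle, which buffers calcium inside the store, had 2, 1 and 2 counts against 182, 157 and 43 (log2 fold change 5.73 ± 0.65, adjusted p = 0.0131).

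The other store genes were not called. *Casq2*, the calsequestrin of heart and slow fibres, had 88, 35 and 75 counts against 146, 153 and 74, with overlapping groups and the smallest fold change of all members, 0.52 ± 0.37. The calsequestrins thus differed: *Casq1* made up 3.52% ± 0.39 (SD, n = 3) of the pair per length in Ivl:BRAFV600E tumours and 55.8% ± 9.75 (SD, n = 3) in SOX2LSL tumours. *Hrc*, a calcium-binding protein of the store, measured 1.74, 1.52 and 1.28 CPM against 4.34, 4.79 and 2.06 CPM (adjusted p = 0.0927). *Sln*, sarcolipin, an inhibitor of the pump, had 0 counts in A, B, C and F, 47 in D and 25 in E (adjusted p = 0.141). *Pvalb*, parvalbumin, a soluble calcium buffer of the fastest fibres, had 0, 0 and 2 counts against 387, 12 and 54 (adjusted p = 0.0594). The buffer and the pump inhibitor were therefore uneven among the SOX2LSL tumours, with *Pvalb* highest in D and *Sln* not detected in F.

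Muscle creatine kinase, *Ckm*, regenerates ATP from phosphocreatine (chr7:19404776-19422841). It had 0, 0 and 7 counts in A, B and C and 2417, 657 and 163 in D, E and F, which is 67.6, 21.3 and 5.89 CPM in the latter. The groups were far apart, yet D held over 3 times the level of E and over 11 times that of F (ratios 3.18 and 11.5), and the log2 fold change was 8.24 ± 1.38 (adjusted p = 0.0292). Without A it was 7.55, without D 7.02, and without C, which held the only *Ckm* counts of its group, the fitted value of 12.84 is no measure of size. *Ckmt2*, the creatine kinase of muscle mitochondria, had 0 counts in every Ivl:BRAFV600E tumour and 78, 106 and 21 in SOX2LSL tumours, at least 52.2-fold higher (adjusted p = 0.0328). *Ampd1*, the AMP deaminase of muscle, measured 0.171, 0.878 and 0.285 CPM against 5.23, 1.17 and 0.47 CPM, so that F lay below B, and it was not called (adjusted p = 0.186).

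Of the 6 genes for glycogen use and glycolysis, only *Pygm* and *Eno3* were called. *Pygm*, muscle glycogen phosphorylase (chr19:6384399-6398459), measured 0.307, 0.693 and 0.713 CPM against 70.9, 21.0 and 7.55 CPM, a log2 fold change of 5.88 ± 0.93 (adjusted p = 0.0272). *Eno3*, the muscle enolase, measured 0.955, 1.06 and 1.19 CPM against 29.8, 13.3 and 5.60 CPM, a log2 fold change of 3.93 ± 0.61 (adjusted p = 0.0267). Both were highest in D and lowest in F among the SOX2LSL tumours, and without D the log2 fold changes were 4.66 for *Pygm* and 3.14 for *Eno3*.

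*Pfkm*, muscle phosphofructokinase, was well expressed in both groups, at 8.29, 10.6 and 10.7 CPM and at 35.5, 28.9 and 13.4 CPM (log2 fold change 1.40 ± 0.35, adjusted p = 0.069). *Phka1*, a regulatory subunit of phosphorylase kinase, measured 1.88, 1.76 and 2.52 CPM against 11.9, 5.83 and 3.36 CPM (adjusted p = 0.077). *Phkg1*, its catalytic subunit, measured 0.512, 0.554 and 0.665 CPM against 2.55, 1.04 and 0.506 CPM, with F below every Ivl:BRAFV600E tumour (adjusted p = 0.242). *Pgam2*, the muscle phosphoglycerate mutase, had the smallest fold change of this group, 0.83 ± 0.28, from 3.75, 6.24 and 3.99 CPM to 10.3, 7.87 and 6.57 CPM (adjusted p = 0.129). The groups of *Pfkm*, *Phka1* and *Pgam2* did not overlap.

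For oxygen and respiration, 4 of 8 genes were called. *Mb*, myoglobin, the oxygen-binding protein of muscle (chr15:77015487-77050670, minus strand), had 1, 1 and 2 counts in A, B and C and 163, 639 and 92 in D, E and F (log2 fold change 7.30 ± 1.02, adjusted p = 0.0221, and 6.02 without E). Unlike *Ckm* and *Pygm* it was highest in E, at 20.7 CPM against 4.56 in D. The cytochrome c oxidase subunits *Cox6a2* and *Cox8b* of striated muscle were at or near 0 in Ivl:BRAFV600E tumours. *Cox6a2* had 0 counts there and 83, 96 and 22 in SOX2LSL tumours, at least 51.2-fold higher (adjusted p = 0.0294). *Cox8b* had 2, 0 and 1 counts against 59, 70 and 19, a ratio of 37.7 (12.6 to 185, adjusted p = 0.0269), and its fitted log2 fold change moved from 5.08 to 5.78 without A. *Coq8a*, needed for making coenzyme Q, measured 1.43, 0.924 and 1.81 CPM against 14.2, 21.8 and 9.86 CPM (log2 fold change 3.46 ± 0.39, adjusted p = 0.0129).

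The remaining 4 were not called. *Cox7a1*, the third such oxidase subunit, measured 0.341, 0.0924 and 0.238 CPM against 0.783, 1.46 and 0.578 CPM (adjusted p = 0.0982). *Slc2a4*, the glucose transporter GLUT4 that answers to insulin, measured 1.64, 2.45 and 2.19 CPM against 6.85, 5.60 and 2.64 CPM (log2 fold change 1.27 ± 0.39, adjusted p = 0.105). *Ucp3*, the uncoupling protein of muscle, measured 0.0682, 0.185 and 0.143 CPM against 2.46, 1.07 and 0.433 CPM (adjusted p = 0.0593). *Fabp3*, a fatty acid carrier of heart and muscle, measured 0.0682, 0.185 and 0.38 CPM against 1.59, 1.33 and 0.217 CPM (adjusted p = 0.15). Its groups overlapped at F, whereas those of the other 3 did not.

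All 3 genes of protein turnover and chaperoning were called. *Trim63*, the ubiquitin ligase MuRF1 of striated muscle (chr4:134315120-134329629), had 0 counts in A, B and C and 71, 90 and 56 in D, E and F, at least 55.2-fold higher (adjusted p = 0.0131). Its SOX2LSL tumours lay close together, at 1.99, 2.92 and 2.02 CPM, and its call held in 5 of the 6 fits without 1 tumour. *Fbxo32*, the ligase atrogin-1, was already at 26.5, 21.4 and 25.6 CPM in Ivl:BRAFV600E tumours and rose to 54.5, 40.9 and 43.2 CPM (log2 fold change 0.91 ± 0.16, adjusted p = 0.0335). *Hspb6*, a small heat shock protein, rose from 1.77, 1.80 and 1.76 CPM to 17.4, 19.1 and 9.25 CPM (log2 fold change 3.10 ± 0.31, adjusted p = 0.00926). The ubiquitin ligases thus started from different levels, with *Trim63* undetected and *Fbxo32* well counted in Ivl:BRAFV600E tumours.

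Of the genes that make the fibre excitable, 3 of 4 were called. *Scn4a*, the sodium channel of the muscle membrane (chr11:106318592-106353288, minus strand), measured 0.0341, 0.185 and 0.0475 CPM against 12.1, 10.6 and 2.35 CPM (log2 fold change 6.55 ± 0.88, adjusted p = 0.0198, and 7.57 without B). *Chrna1*, the alpha subunit of the muscle acetylcholine receptor, measured 0.136, 0.0462 and 0.095 CPM against 3.67, 3.85 and 0.614 CPM (log2 fold change 4.77 ± 0.84, adjusted p = 0.0332). *Clcn1*, the muscle chloride channel, measured 0.136, 0.0462 and 0.19 CPM against 1.54, 1.04 and 0.542 CPM (adjusted p = 0.0491), a call that none of the 6 fits without 1 tumour kept. *Musk*, the receptor kinase that organises the synapse, measured 0.0682, 0.0924 and 0.428 CPM against 0.671, 1.75 and 0.433 CPM (adjusted p = 0.146). The C and F values of *Musk* were nearly equal.

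Together the 37 genes held 0.00562%, 0.00494% and 0.00602% of the counts of A, B and C and 0.0922%, 0.0657% and 0.0246% of those of D, E and F. The means were 0.00553% ± 0.000544 and 0.0608% ± 0.0341 (SD, n = 3 each). Markers of other cell types were summed in the same way. A list of 20 contractile proteins of striated muscle held 0.000575%, 0.00059% and 0.00163% in A, B and C and 0.392%, 0.375% and 0.0871% in D, E and F, and 13 of the 18 that could be tested rose. Without A the number called was 0 (15 had an unadjusted p below 0.05), and without B, C or E it was 1, 6 and 6. The giant protein titin, *Ttn*, had 26, 17 and 179 counts against 69038, 62033 and 14100, and alpha-actinin 2, *Actn2*, had the smallest p of the list (log2 fold change 6.86, adjusted p = 0.00708). The contractile list and the members thus moved in the same tumours, and its part in the members' result was not tested.

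**Figure D2:**
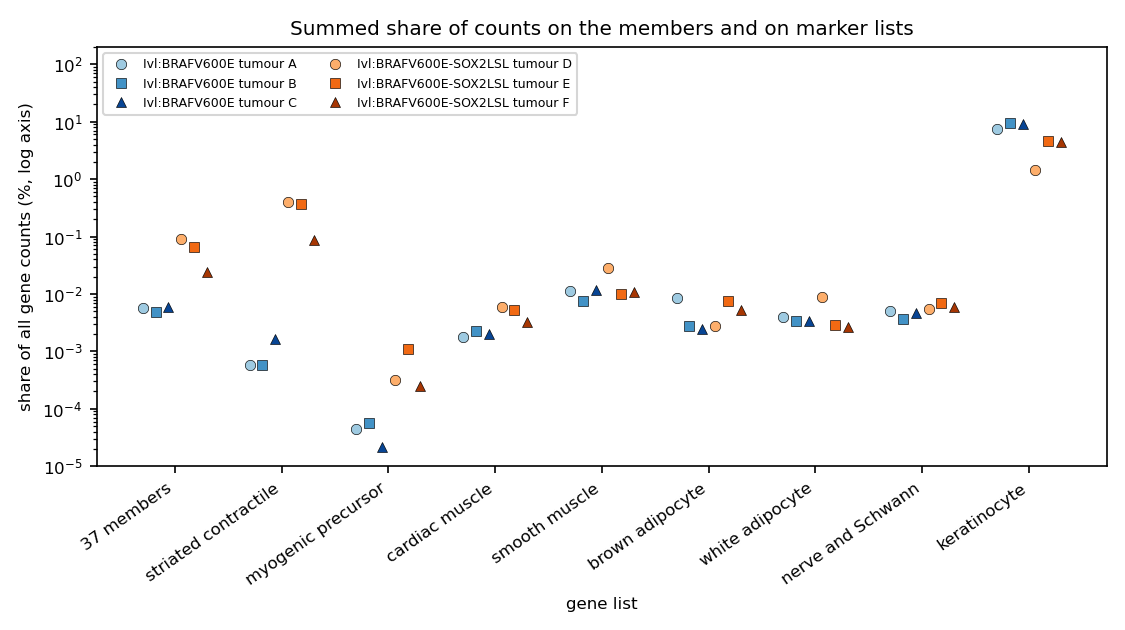
Share of all gene counts, in percent on a log axis, held by the 37 genes and by each marker list, with 1 point per tumour. The contractile list climbs from at most 0.00163% to at least 0.0871%, the members from at most 0.00602% to at least 0.0246%, and the keratinocyte list is lower in D, E and F.

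The mixture of the 2 lists differed between the groups. For every 100 counts on the contractile list, A, B and C had 979, 837 and 368 counts on the 37 genes, and D, E and F had 23.5, 17.5 and 28.2. The members' counts of Ivl:BRAFV600E tumours were led by *Fbxo32*, *Pfkm*, *Pgam2* and *Ryr1*.

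Other cell types were checked against their own lists. Of 9 genes of myogenic precursors, 6 could be tested and 1 rose, the muscle regulatory factor *Myf6*, with 0 counts in A, B and C and 34, 93 and 15 in D, E and F (adjusted p = 0.0495), a call kept without D and lost without any other tumour. Of these 6, 5 had an unadjusted p below 0.05, 5 did not overlap between the groups and DESeq2 called 4. Over all genes, 18.2% were higher without overlap and DESeq2 called 10.5% higher. *Pax7* had 0, 0 and 2 counts against 8, 10 and 5, and *Myod1* and *Myog* had 1 count each in F. The precursor list held 4.49e-05%, 5.71e-05% and 2.12e-05% of counts in A, B and C and 0.000323%, 0.00109% and 0.000252% in D, E and F, so it too was higher in the SOX2LSL tumours. The heart markers *Myh6* and *Nppa* were at 0 in all 6 tumours, *Nppb* rose (log2 fold change 2.00) and *Tnnt2* fell by 1.43 on the log2 scale, calls that were lost without A, B, C or E and, for *Tnnt2*, without F. None of 7 keratinocyte markers was called by edgeR, 3 had an unadjusted p below 0.05 and DESeq2 called 3. Without tumour D edgeR called 3 of them, *Krt1* and *Krt10* lower and *Dsg3* higher in SOX2LSL tumours. Their summed share was 7.37% to 9.64% in Ivl:BRAFV600E tumours and 1.46%, 4.59% and 4.36% in D, E and F. Keratin 1, *Krt1*, was highest by mean CPM over the 6 tumours (log2 fold change -2.24, adjusted p = 0.149), and *Krt10* had the most negative fold change (-3.06, adjusted p = 0.0935). When each tumour was left out, they ranged from -2.65 to -1.71 for *Krt1* and from -3.87 to -2.53 for *Krt10*. None of 5 nerve and Schwann cell markers was called by edgeR or DESeq2 or had an unadjusted p below 0.05, and the highest by CPM, *Mbp*, lay between 34.0 and 53.5 CPM. Of 6 smooth muscle markers edgeR called none, DESeq2 called 1 and 1 had an unadjusted p below 0.05, and the highest by CPM, *Acta2*, was at 169 CPM in D and between 23.3 and 56.9 CPM elsewhere.

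Adipocytes also express *Slc2a4*, and brown adipocytes *Cox8b*, so their markers were read too. *Adipoq*, adiponectin, had 150 counts in D, 3 in F and 0 in the other tumours, and *Plin1*, perilipin 1, had 299 in D and at most 6 elsewhere. None of the 6 white adipocyte markers was called by edgeR, DESeq2 called 1 and 3 had an unadjusted p below 0.05. The highest of them by CPM, *Lipe*, lay at 35.7 to 40.9 CPM in A, B and C and at 23.3 to 26.9 CPM in D, E and F (adjusted p = 0.0509), and edgeR called it lower without D, with upper-quartile scaling and with the filterByExpr filter. Of 5 brown adipocyte genes 1 was called, *Cidea*, which fell by 1.62 on the log2 scale, a call lost without A, B, E or F. *Ucp1*, the defining gene of brown fat, had 3, 13 and 4 counts in A, B and C and 1, 0 and 0 in D, E and F, and *Dio2*, the highest by CPM, overlapped between groups. *Adipoq* and *Plin1* were thus highest in D. Their part in the members' values was not tested. In the fit without D, 21 members were called, 20 of them among the 21 of all 6 tumours.

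Most members have a relative in the same family that serves other tissues, which allowed the tissue form to be compared with the general form in the same libraries. Of 27 such relatives outside the 37 genes, 1 rose, 1 fell and 25 were not called, their median log2 fold change was -0.04, and 13 were above 0. *Pygl*, liver phosphorylase, rose (log2 fold change 1.19, adjusted p = 0.0391), and *Ckb*, the brain form of creatine kinase, fell by 1.39 on the log2 scale (adjusted p = 0.029). Without A, B, C or E no relative was called, while 7, 7, 10 and 10 had an unadjusted p below 0.05, and without D or F the counts were 4 and 1. The lowest of D, E and F exceeded the highest of A, B and C for 7 of the 27, and 8 were lower without overlap. Over all genes, 18.2% were higher without overlap and 16% were lower. The difference between members and relatives was not tested, and the list of relatives was drawn up with results of these data known.

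**Figure D3:**
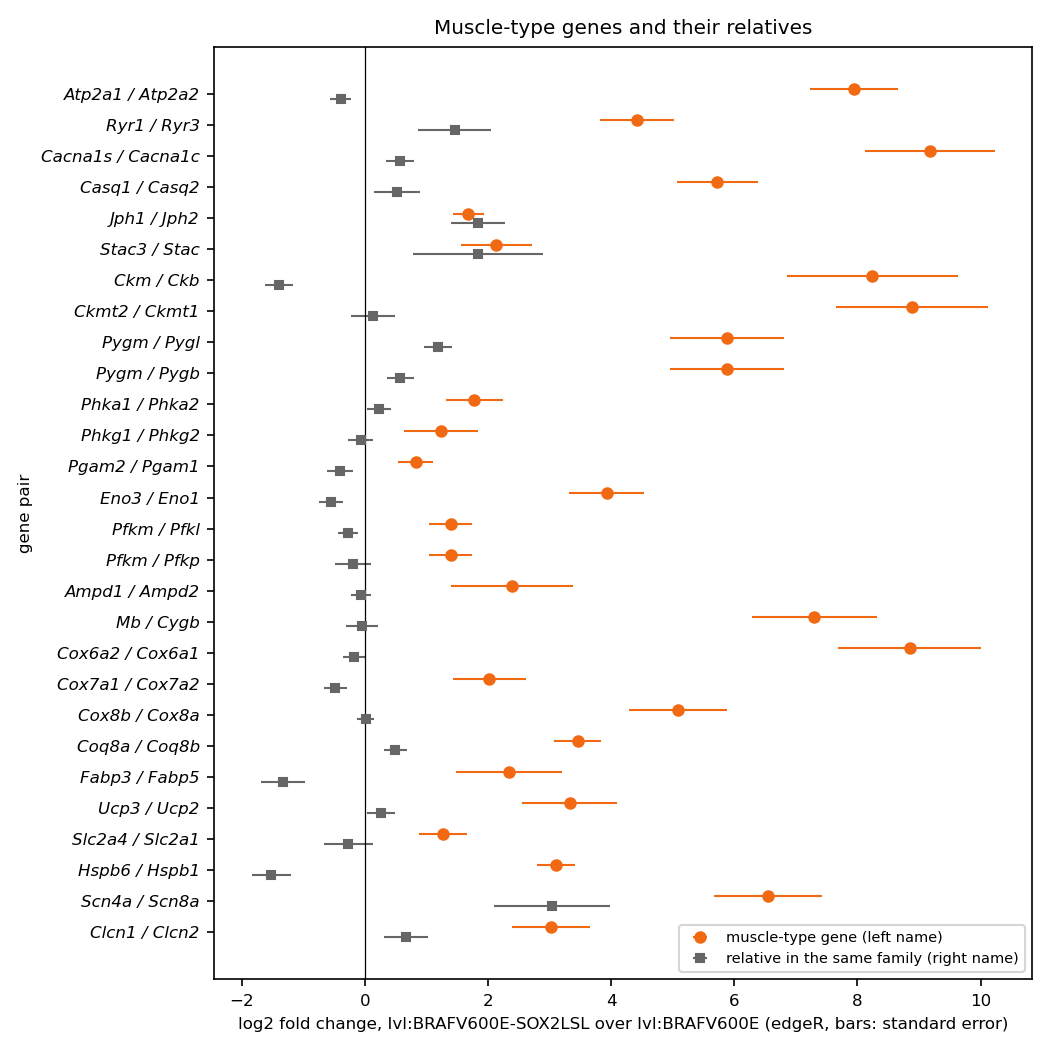
Log2 fold change of Ivl:BRAFV600E-SOX2LSL over Ivl:BRAFV600E for each member with a relative (orange circles) and for that relative (grey squares), with standard errors from edgeR and 1 row per pair. The grey squares lie between -1.52 for *Hspb1* and 3.04 for *Scn8a*, and the circles reach 9.17 for *Cacna1s*. In the junctophilins and the STAC adaptors the circle and the square lie close together.

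Among the calcium pumps the muscle form took a larger share in SOX2LSL tumours. *Atp2a2*, the SERCA2 pump of heart, slow muscle and non-muscle cells, was at 766, 767 and 732 CPM in A, B and C and at 463, 641 and 624 CPM in D, E and F (log2 fold change -0.39 ± 0.17, adjusted p = 0.199). Per length, *Atp2a1* held 0.117%, 0.0527% and 0.238% of the pump pair in A, B and C and 44.6%, 30.0% and 13.8% in D, E and F. For creatine kinase, *Ckm* held 0, 0 and 1.76% of the pair with *Ckb* in A, B and C and 89.2%, 79.2% and 53.6% in D, E and F. For phosphorylase, *Pygm* held 17.6% ± 4.82 of the pair with *Pygl* and rose to 74.8% ± 19.8 (SD, n = 3 each). *Mb* held 1.46% ± 0.584 of the pair with cytoglobin, *Cygb*, and 61.5% ± 21.6 in SOX2LSL tumours. In each of these pairs the groups did not overlap, and no test was run on the shares.

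In other families the general form kept most of the RNA. *Eno3* held 4.55% ± 3.71 of the pair with *Eno1* in SOX2LSL tumours, *Cox8b* held 3.69% ± 1.91 of the pair with *Cox8a*, and *Ckmt2* held 2.37% ± 1.76 of the pair with *Ckmt1*. *Slc2a4* held 1.54% ± 0.764 of the pair with *Slc2a1*, the widespread glucose transporter. *Jph2*, the relative of *Jph1*, had a fold change close to that of its partner, 1.83 ± 0.44 on the log2 scale (adjusted p = 0.0642, a miss), and the *Jph1* share per length was 46.9% in both groups. *Ryr1* held at least 92.8% of the pair with *Ryr3* in every tumour. Ryanodine receptor RNA of the skeletal type was therefore also the main form of this pair where contractile transcripts were near 0. Of the relatives not named so far, *Cacna1c*, *Stac*, *Pygb*, *Phka2*, *Phkg2*, *Pgam1*, *Pfkl*, *Pfkp*, *Ampd2*, *Cox6a1*, *Cox7a2*, *Coq8b*, *Fabp5*, *Ucp2*, *Hspb1*, *Scn8a* and *Clcn2*, none was called by edgeR. DESeq2 called 7 of the 27 relatives, *Pygl*, *Jph2* and *Scn8a* higher and *Ckb*, *Hspb1*, *Fabp5* and *Eno1* lower.

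Further genes of the same pathways were read from the same fit. Of 20 other genes of excitation-contraction coupling, 5 rose and 1 fell. *Fkbp1a*, which binds and steadies the release channel, had the highest CPM of the list, with no correction for length, and the smallest p, at 53.4, 59.8 and 56.6 CPM against 123, 104 and 95.2 CPM (log2 fold change 0.92 ± 0.14, adjusted p = 0.0253). *S100a1*, *Sypl2*, *Cav3* and *Bin1*, which act on the release channel and on the membrane tubules, also rose, with log2 fold changes of 2.01, 4.09 and 2.11 for *S100a1*, *Sypl2* and *Bin1*. *Cav3* had 1, 0 and 0 counts against 39, 30 and 11, a ratio of 61.1 (10.7 to 2443). *Mtm1*, the lipid phosphatase myotubularin, fell by 1.17 on the log2 scale, from 25.1, 29.7 and 21.9 CPM to 9.85, 12.7 and 11.6 CPM (adjusted p = 0.026). The share that rose was 25%, against 2.39% of all genes.

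Of 20 genes of muscle energy metabolism, 3 rose. *Ppp1r3a*, which brings a phosphatase to glycogen in muscle, had 0 counts in A, B and C and 350, 198 and 34 in D, E and F, at least 148-fold higher. *Adssl1*, the partner of *Ampd1* in the purine nucleotide cycle, rose by 3.09 on the log2 scale. *Art1*, a muscle ADP-ribosyltransferase, had the smallest p of the list, with 0, 1 and 0 counts against 177, 169 and 39 (ratio 294, 52.5 to 11643, adjusted p = 0.0171). Lactate dehydrogenase A (*Ldha*), highest of the list by CPM, measured 896, 1276 and 762 CPM against 546, 683 and 691 CPM and missed the threshold (adjusted p = 0.149). Of 15 genes of the synapse and excitability, 2 rose, and the potassium channel *Kcna7* had the smallest p (log2 fold change 2.53, adjusted p = 0.0347). Utrophin, *Utrn*, highest by CPM, missed the threshold with a log2 fold change of 0.34 (adjusted p = 0.283). Of these 55 genes in the 3 lists 11 were called, but without A or without B none was, while 28 and 27 had an unadjusted p below 0.05, and without C or without E the count was 1.

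Within the SOX2LSL group the members did not simply scale with each other. Among the 21 with at least 30 counts in each of D, E and F, tumour F was the lowest for 19, D was the highest for 13 and E for 8. The median ratio of D to F was 2.65 and that of D to E was 1.03. The ratio of D to E spread widely around its median, from 0.22 for *Mb* to 3.38 for *Pygm*. *Ckm*, *Pygm*, *Eno3* and *Phka1*, which serve fast ATP supply and glycogen, were over 2-fold higher in D than in E (3.18, 3.38, 2.24 and 2.04). *Mb*, *Ryr1* and *Coq8a* were higher in E, with ratios of 0.22, 0.611 and 0.65. *Pvalb*, with only 12 counts in E, was 27.9 times as high in D.

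**Figure D4:**
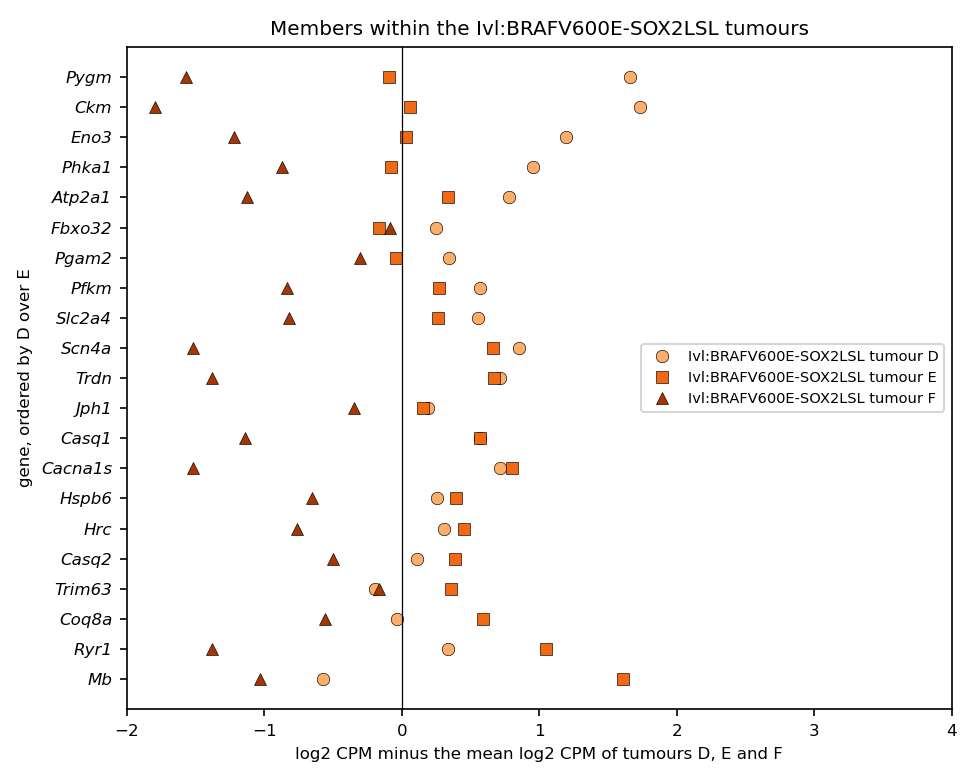
For the 21 members with at least 30 counts in each of D, E and F, log2 CPM in each tumour minus the mean log2 CPM of the 3 tumours, with genes ordered by the ratio of D to E. Glycogen and creatine kinase genes at the top are highest in D, *Mb* and *Ryr1* at the bottom are highest in E, and F is lowest for 19 genes.

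The myosin heavy chains, picked after their values were seen, differed between the same tumours. *Myh4*, the myosin of type IIb fibres, had 0 counts in A, B and C and 9650, 547 and 484 in D, E and F, and was not called (adjusted p = 0.0561). *Myh1*, the myosin of type IIx fibres, had 3, 2 and 25 counts against 2920, 13359 and 2735 and rose (log2 fold change 8.86, adjusted p = 0.0196). Its log2 fold change ran from 7.68 to 10.96 when each tumour was left out. D was thus the tumour with the most *Myh4*, *Pvalb*, *Ckm* and *Pygm*, and E the one with the most *Myh1*, *Mb*, *Ryr1* and *Myf6*. With 1 library of each, these differences describe the tumours and have no replicate check.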

How the data were processed

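The deposited counts are raw reads per gene, which the authors made by checking reads with FastQC 0.11.8, trimming with Trim Galore, aligning to GRCm38 with HISAT2 2.1.0 and counting with featureCounts (Subread 1.6.3), per the submitters' processing notes and the methods. The use of strand and of reads with several alignments was not given in the sources used here, and 16 of the 37 genes share exon bases with another gene in GENCODE M21, used here for coordinates, so that reads there may have been lost or shared. The labels list 4 Ivl:BRAFV600E and 3 Ivl:BRAFV600E-SOX2LSL samples. The columns are named by mouse, and 3 per group were assigned from the study's list of mice, with their sex. The name of 1 further column matched no listed mouse. It begins like the SOX2LSL columns, whereas the labels leave room only for another Ivl:BRAFV600E tumour, so its group is unknown and it was not used.

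The filter asked for a minimum of 5 reads in any 1 of the tumours and left 24433 genes, which were scaled by TMM and fitted with the quasi-likelihood test of edgeR 4.0.16 (R 4.3.3), with Benjamini-Hochberg adjustment at 0.05 over all of them and no covariate. Level per length is CPM per kb of merged exons. Ratios of counts below 4 in a group carry exact 95% intervals. The test was checked on simulated counts that gave every gene the same dispersion. That check does not cover genes as uneven between tumours as *Ckm* or *Pvalb*. Alternatives were DESeq2 1.42.0, limma 3.58.1 with voom, other scalings and filters, sex as a covariate and leaving out each tumour. The members and gene lists were chosen with earlier results of these data known. In each role group the genes with the highest CPM and the largest and smallest fold change, and all genes not called, have values in every tumour. Pathway and marker genes are named if highest by CPM, if called with the smallest p, or if at 0 as defining markers. Some others of these lists are named as well, called genes among them. Not every gene that was called or had few counts is named. For 1 gene of the lists the values are not reported here.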

Additional observations from a re-analysis of the deposited data

How the results depend on the processing

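All 37 members kept a positive fold change under every alternative that could test them (35 were tested after the filterByExpr filter). Members called, 21 in the edgeR fit, numbered 30 with DESeq2, which called 10.5% of all genes higher, 7 with limma and 13 with sex as a covariate. They ranged from 0 to 21 when each tumour was left out. The other pathway genes called, 11 in the edgeR fit, numbered 25 with DESeq2, 5 with limma, 19 without scaling beyond library totals, 19 without a filter on low counts, 2 with sex as a covariate and 0 to 13 when each tumour was left out. Of them 28 had an unadjusted p below 0.05 without tumour A and 27 without B. The relatives called, 2 in the edgeR fit, numbered 7 with DESeq2, 4 without scaling, 5 without a filter, 1 with sex and 0 to 4 when each tumour was left out. When each tumour was left out, the mean summed share of the members ran from 0.00528% to 0.00582% in Ivl:BRAFV600E tumours. In Ivl:BRAFV600E-SOX2LSL tumours it ran from 0.0451% to 0.0789%. The cause of these changes was not tested.

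Changes of sign arose only among genes that were not called. Without scaling, the log2 fold changes were 0.31 for *Ampd2*, 0.16 for *Cox6a1*, 0.32 for *Cygb*, 0.097 for *Pfkl*, 0.15 for *Pfkp*, 0.29 for *Phkg2* and 0.12 for *Slc2a1*. With upper-quartile scaling, they were -0.081 for *Cox8a* and -0.047 for *Dio2*, which limma put at -0.0979. When each tumour was left out, they ranged from -0.22 to 0.039 for *Ampd2*, -0.13 to 0.47 for *Ckmt1*, -0.054 to 0.13 for *Cox8a*, -0.23 to 0.13 for *Cygb*, -0.33 to 0.052 for *Pfkp*, -0.17 to 0.0052 for *Phkg2*, -0.54 to 0.41 for *Slc2a1*, -0.68 to 1.09 for *Dio2* and -0.0081 to 0.30 for *Mbp*. No paired analysis was possible because the columns of the count table carry no replicate number. Low counts in Ivl:BRAFV600E tumours limit the size of the largest fold changes to lower bounds or wide intervals.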
